A study of Mus musculus with 6 samples.

Results

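Collagens, laminins and the glycoproteins assembled with them were read in cultured mouse neural progenitor cells, the cycling cells that give rise to neurons and glia. They were chosen by symbol: every row for a collagen chain, a laminin chain, nidogen, perlecan (Hspg2), agrin (Agrn), fibronectin (Fn1), SPARC or SPARC-like 1, a fibrillin, a fibulin, a lysyl oxidase or biglycan (Bgn), which gave 67 of the 22057 genes in the table. One of the 67, Col4a3bp, carries a collagen name but encodes a ceramide transfer protein, so 66 are matrix genes. All cells were from 3 mice labelled p53-null, numbered 62, 68 and 69, and were sampled at 4 days. In the PDGFA group (n = 3) the stem cell medium held platelet-derived growth factor A. In the EF group (n = 3), named as the control, it held EGF, FGF and heparin, so the groups differ both in the factor added and in the factors and heparin absent. Each mouse gave 1 library to each group, and nothing in the labels says that cultures were repeated within a mouse. The series title concerns a mitogen that makes mitosis go wrong and transforms the cells.

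Basement membranes are sheets in which laminin trimers of an alpha, a beta and a gamma chain form one network and collagen IV another, with nidogens, perlecan and agrin linking them. Fibrillar collagens form cables: collagens V and XI are the minor chains that start and limit the thickness of fibrils of collagens I and II, and collagen IX sits on the surface of collagen II fibrils. In the brain such matrix lies mainly in vessels, the meninges and the ventricular stem cell niche, and progenitors attach to laminin through integrins.

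PDGFA libraries held 34812800 to 39601349 recovered reads and EF libraries 27270246 to 30151469. Values are normalized counts, that is reads scaled by a size factor for each library, and any 3 values of a group are those of mice 62, 68 and 69 in that order. Trp53, which encodes p53, was read at 988 to 1122 in PDGFA libraries and 1672 to 2383 in EF libraries, and the labels do not say which part of it is deleted. The EF library of mouse 68 held 14133 of Pdgfra, the receptor of PDGFA, against 861 for mouse 62 and 533 for mouse 69. It was also the highest EF library for 31 of the 58 matrix members that were tested. Over all genes it was not the most distant EF library. There chi-square per degree of freedom was 140 between mice 62 and 69, 120 between 62 and 68 and 81.5 between 68 and 69. Oligodendrocyte markers were higher in PDGFA libraries in 10 of 10 genes (summed 293120.2 to 376129.7, against 2465 to 3951 in EF, where Mog was at 0 in all libraries). Astrocyte markers were called higher in 7 of 10, with sums that did not overlap. Of 10 oligodendrocyte precursor markers 3 were called higher and 3 lower, with sums that overlapped. Of 8 tested neuron markers 3 were called higher and 0 lower, and of 7 ependymal markers 3 higher and 1 lower. Neuron markers summed to 37541 to 46681 in PDGFA and 26382 to 31121 in EF, and ependymal markers to 773 to 1174 in PDGFA and 229 to 455 in EF. Neural progenitor markers split, with 4 of 10 called higher (Sox2, Hes5, Prom1 and Msi1) and 5 lower (among them Nes, Vim and Egfr), and summed to 61462 to 69889 in PDGFA libraries and 110714 to 216575 in EF libraries. For comparison, 21.8% of all tested genes were called higher and 18.0% lower. In such bulk RNA, fewer cells of a type and less RNA per cell cannot be told apart.

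Sequences just upstream of the starts that RefSeq annotates are shown for the fibrillar collagen genes that changed in opposite directions (collagens XI and V). They are also shown for Col9a1, which rose most among the collagens. The gap between Col4a4 and Col4a3, neighbours that changed in opposite directions at few reads, is shown as well. All sequences are 250 bases long (the gap 71) and are read 5′ to 3′ on the strand of the gene (the gap on the plus strand). They overlap no annotated exon and are from RefSeq on GRCm38.p6, but the gap is bounded by the starts that GENCODE annotates. For Col11a2 the GENCODE start, 34039437, lies downstream of the RefSeq start. Capitals mark the GC box GGGCGG on either strand.
Col9a1, chr1:24177360-24177609, plus strand: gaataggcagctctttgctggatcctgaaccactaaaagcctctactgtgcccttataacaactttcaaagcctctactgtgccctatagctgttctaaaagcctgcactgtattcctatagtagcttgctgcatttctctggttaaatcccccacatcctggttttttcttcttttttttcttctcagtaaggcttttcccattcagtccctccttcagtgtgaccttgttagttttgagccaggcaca
Col11a1, chr3:114030290-114030539, plus strand: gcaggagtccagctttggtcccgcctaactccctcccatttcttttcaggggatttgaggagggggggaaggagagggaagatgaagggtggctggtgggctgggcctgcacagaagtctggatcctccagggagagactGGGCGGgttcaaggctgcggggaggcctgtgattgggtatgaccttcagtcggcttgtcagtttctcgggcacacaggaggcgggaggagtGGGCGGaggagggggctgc
Col11a2, chr17:34038888-34039137, plus strand: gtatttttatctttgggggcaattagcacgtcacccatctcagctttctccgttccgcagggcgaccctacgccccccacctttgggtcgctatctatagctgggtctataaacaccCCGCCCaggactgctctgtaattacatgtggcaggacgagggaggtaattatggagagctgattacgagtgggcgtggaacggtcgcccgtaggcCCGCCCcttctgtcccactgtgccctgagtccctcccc
Col5a1, chr2:27886175-27886424, plus strand: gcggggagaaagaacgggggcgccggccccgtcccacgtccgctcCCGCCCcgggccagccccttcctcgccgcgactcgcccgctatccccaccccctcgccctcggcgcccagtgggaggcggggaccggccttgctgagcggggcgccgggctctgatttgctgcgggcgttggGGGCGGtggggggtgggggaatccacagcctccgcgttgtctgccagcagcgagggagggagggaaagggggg
Col5a3, chr9:20815068-20815317, minus strand: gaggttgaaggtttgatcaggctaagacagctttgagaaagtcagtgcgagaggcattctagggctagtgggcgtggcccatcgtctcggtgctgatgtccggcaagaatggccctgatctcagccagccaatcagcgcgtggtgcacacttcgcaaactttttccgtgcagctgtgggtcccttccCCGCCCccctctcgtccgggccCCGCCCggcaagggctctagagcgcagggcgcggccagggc
Col4a4 to Col4a3 gap, chr1:82586850-82586920, plus strand: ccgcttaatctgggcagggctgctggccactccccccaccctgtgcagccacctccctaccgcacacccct
Among these windows the word did not separate genes that rose from genes that fell: Col11a1, Col11a2, Col5a1 and Col5a3 each hold 2 GC boxes, and Col9a1 and the gap hold none. Of the 67 members 43 had an entry in the promoter table, with 50 windows in all, and 30 of these windows (60.0%) held GGGCGG on either strand, against 32.7% of all 32851 windows of the table. TATAAA was in 2 of the 50 windows (4.0%), 1 of them that of Col11a2, against 12.4% of all windows. A further search took the 8 words that SOX proteins are known to bind, A or T, then A or T, then CAAAG or CAATG, and found at least 1 in 8 of the 50 windows (16.0%), against 21.8% of all windows. Each search covered both strands of the 250 bases before the start, and no word of one search is part of a word of another.

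Of the 67 members 58 had a mean normalized count of at least 10 over the 6 libraries and were tested with limma, with p-values adjusted over all 17068 tested genes. In PDGFA libraries 20 members were higher and 18 lower at an adjusted p under 0.05, and 20 were not called. Over all tested genes 21.8% were called higher and 18.0% lower. The median log2 fold change (PDGFA over EF) was -0.21 over the members and -0.01 over all tested genes. Collagen chains, with 11 higher and 8 lower of 31, had a median of 0.52, and the 26 other matrix members, with 8 higher and 10 lower, had one of -0.73. Among the 38 called members 36 changed by 2-fold or more. All 38 moved in the same direction in each of the 3 mice. For all but Col11a1 this had to be so, since their groups did not overlap. All 3 PDGFA libraries were above all 3 EF libraries for 20 members and below them for 20, against 29.2% and 26.3% of all tested genes. Of the 58, 10 passed the minimum through 1 group only, so their difference was in part a condition of being tested: Col4a3, Col4a4, Col6a2, Col6a3, Col14a1, Col19a1, Col25a1, Lama3, Lamb3 and Loxl2. In the lists of pathway genes and markers the same held, through PDGFA, for genes such as P4ha3, Musk, Itgb4, Rgs5 and Gjb6. Among the oligodendrocyte markers it held for Mag, Mog, Mobp, Enpp6 and Opalin.

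**Figure D1:**
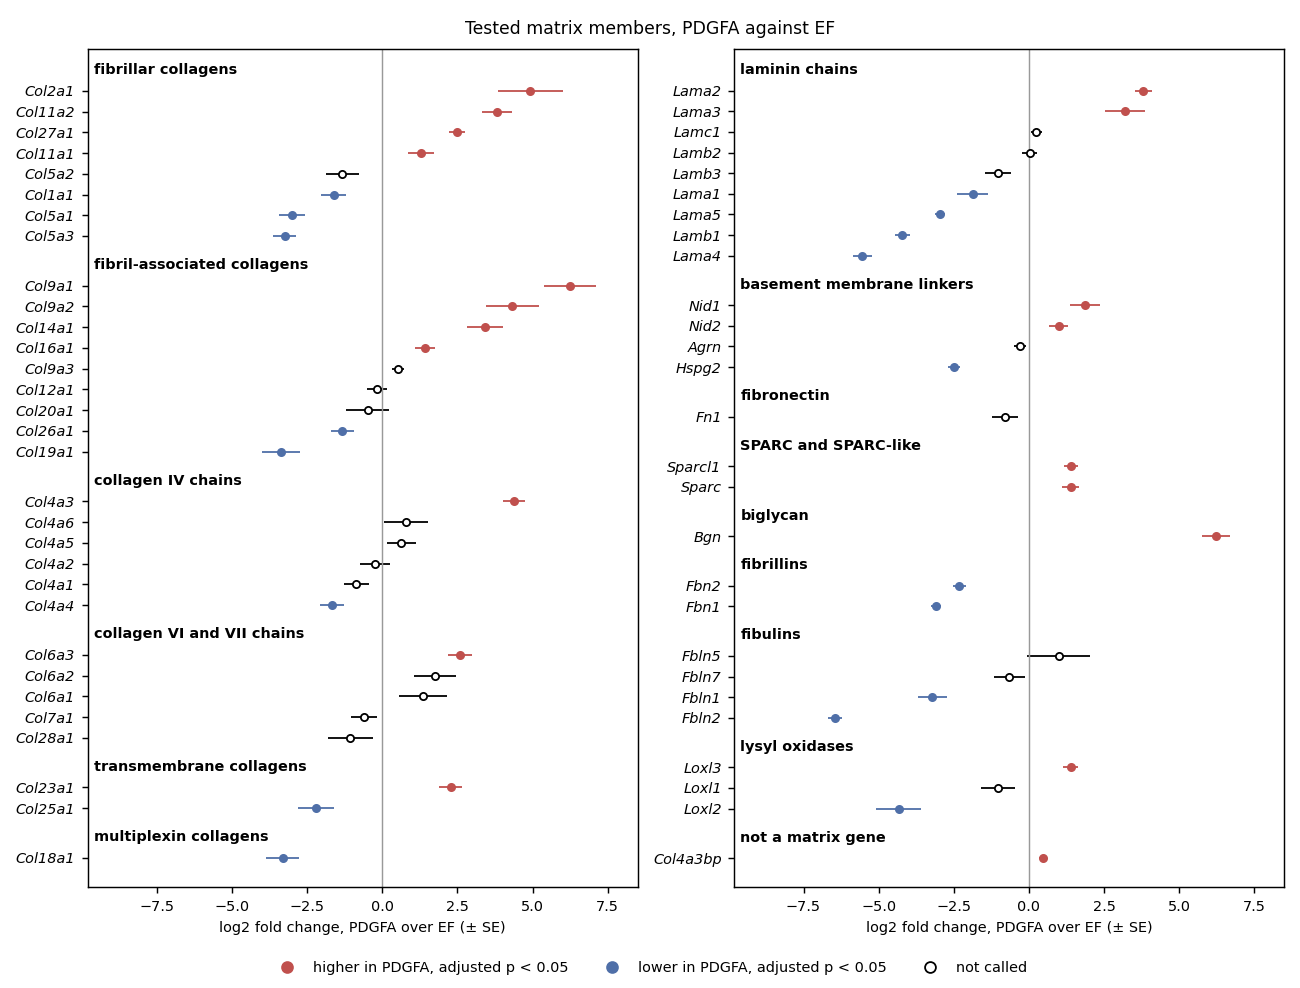
Log2 fold change, PDGFA over EF, of the 58 tested members by class, with bars for the standard error; filled points passed an adjusted p of 0.05. In each class with 3 or more tested members points lie on both sides of 0, and the whole range runs from 6.25 for Col9a1 to -6.46 for Fbln2.

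Collagens II, IX and XI, which form the fibrils of cartilage and of the vitreous of the eye, rose in PDGFA libraries together with collagens XXVII and XVI. Col9a1, an alpha chain of collagen IX, had 2364, 1723 and 1586 in PDGFA libraries, against 17.2, 107 and 6.39 in EF libraries, a log2 change of 6.25 (SE 0.86, adjusted p = 0.00121). Col9a2, the second chain of the same trimer, had 905, 1128 and 1149 in PDGFA and 77.6, 163 and 10.2 in EF, a log2 change of 4.33 (SE 0.87, adjusted p = 0.00661). The third chain, Col9a3, was already high in EF: it had 2713, 2888 and 3337 in PDGFA and 2745, 1967 and 1644 in EF, a log2 change of 0.52 that was not called (adjusted p = 0.0793), although it was without EF 62 (adjusted p = 0.00882). Per kilobase of exon, collagen IX chains summed to 1489 ± 53.3 in PDGFA libraries and 585 ± 155 in EF libraries (SD, n = 3 each). Of that EF level Col9a3 alone made 549.8 per kilobase, against 8.59 for Col9a1 and 27.0 for Col9a2. In PDGFA the 3 chains stood at 773 for Col9a3, 373 for Col9a1 and 343 for Col9a2.

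Col2a1, the only chain of collagen II, had 261, 491 and 1208 in PDGFA libraries, against 19.2, 75.4 and 2.56 in EF libraries, a log2 change of 4.93 (SE 1.07, adjusted p = 0.00933). Col11a2 of collagen XI had 2470, 1797 and 1768 in PDGFA and 257, 185 and 57.5 in EF, a log2 change of 3.82 (SE 0.51, adjusted p = 0.00102). In both genes every PDGFA library lay above every EF library, and the EF library of mouse 69 was the lowest of all 6. Col11a1, the other collagen XI chain that the table holds, had 8334, 4665 and 3537 in PDGFA and 1350, 3688 and 1845 in EF, a log2 change of 1.30 (SE 0.43, adjusted p = 0.0441). It was the only called member whose groups overlapped, through the EF library of mouse 68, and the call was lost without PDGFA 62 (adjusted p = 0.132), PDGFA 68 (0.0917), EF 62 (0.105) or EF 69 (0.106), and with edgeR (0.0553).

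Col27a1, a fibrillar collagen of cartilage, had 4716, 3607 and 2545 in PDGFA libraries and 701, 716 and 495 in EF libraries, a log2 change of 2.48 (SE 0.26, adjusted p = 0.000309). Col16a1, a fibril-associated collagen, had 6385, 6234 and 5350 in PDGFA and 1297, 3588 and 2337 in EF, a log2 change of 1.43 (SE 0.34, adjusted p = 0.0128). The groups did not overlap in either gene. Size depended on 2 EF libraries for several of these chains: without EF 68 the log2 fold changes of Col9a1, Col9a2 and Col2a1 were 7.33, 5.15 and 5.99, and without EF 69 those of Col9a1, Col9a2, Col2a1 and Col11a2 were 5.39, 3.22, 3.78 and 3.18. All 4 stayed called in each case.

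Collagen V, the fibril-starting collagen that accompanies collagen I, went the other way. Col5a1 had 302, 262 and 212 in PDGFA libraries, against 1007, 2365 and 3535 in EF libraries, a log2 change of -2.99 (SE 0.43, adjusted p = 0.00143). Col5a3 had 183, 199.6 and 291 in PDGFA and 1264, 2019 and 3651 in EF, a log2 change of -3.25 (SE 0.38, adjusted p = 0.000562). In EF both chains ran in the same order over the mice, lowest in 62 and highest in 69. Col5a2 shared that order in both groups, with 444, 807 and 1909 in PDGFA and 1302, 2426 and 3457 in EF. Its groups overlapped and it was not called (log2 fold change -1.33, adjusted p = 0.0915), but it was called lower with the mouse as a block (adjusted p = 0.00346) and without PDGFA 69 (adjusted p = 0.0259). Over the alternatives its adjusted p lay between 0.00346 and 0.322.

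**Figure D2:**
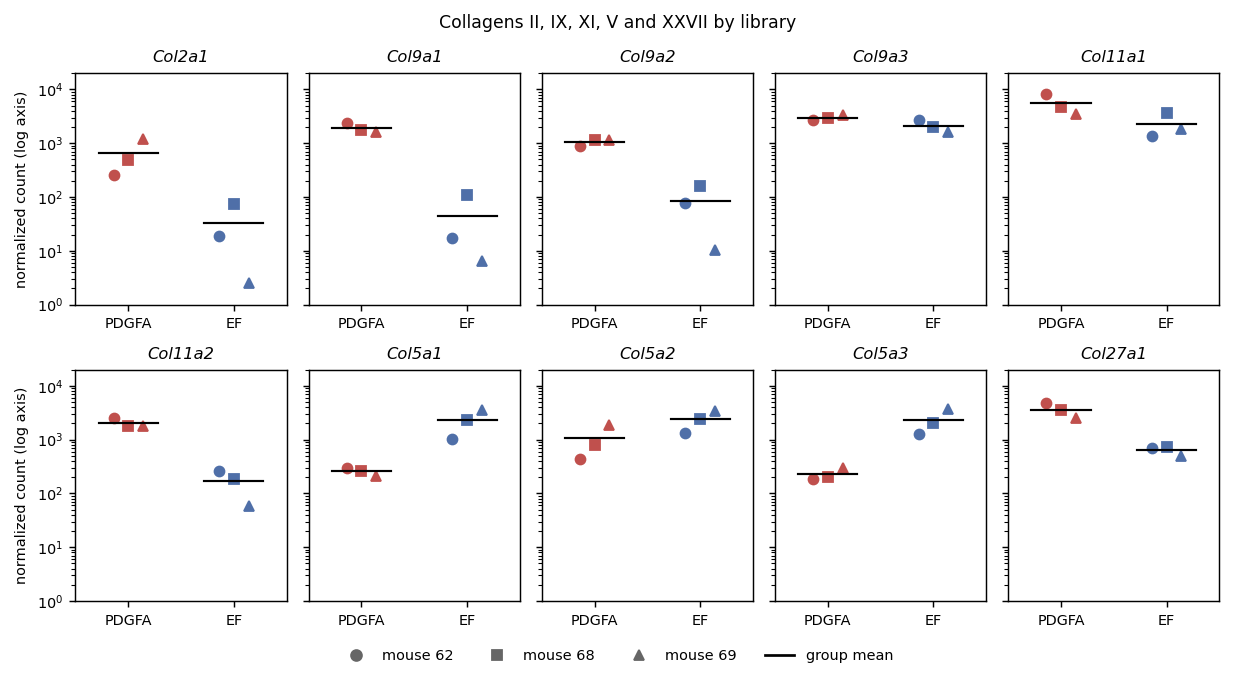
Normalized count (log axis) of 10 collagen chains in each library, with PDGFA left of EF, the mouse shown by the marker and the group mean by the line. Col2a1, Col9a1, Col9a2, Col11a2 and Col27a1 lie higher in every PDGFA library, Col5a1 and Col5a3 lie lower in every one, and Col9a3, Col11a1 and Col5a2 overlap.

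Set against each other per kilobase, collagen XI chains summed to 725 ± 254 in PDGFA libraries and 204 ± 97.1 in EF libraries, while collagen V chains summed to 173 ± 83 in PDGFA and 860.4 ± 437 in EF. The log2 ratio of XI to V was 3.22, 2.12 and 1.0 in the PDGFA libraries and -1.62, -1.39 and -3.10 in the EF libraries, a ratio chosen after its values were seen. It was above 0 in every PDGFA library and below 0 in every EF library. Chains of collagen I, the main collagen of connective tissue, were scarce in both groups: Col1a1 averaged 19.0 ± 5.22 in PDGFA and 62.3 ± 26.1 in EF (log2 fold change -1.62, SE 0.42, adjusted p = 0.0183), and Col1a2 was under the minimum for a test, at 0 to 3.58 in PDGFA and 12.4 to 20.1 in EF. The call of Col1a1 was lost without PDGFA 68 (adjusted p = 0.0823), PDGFA 69 (0.0601) or EF 68 (0.0556).

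Among the other collagens, Col18a1, the basement membrane collagen whose end fragment is endostatin, fell. It had 95.9, 104 and 93.2 in PDGFA libraries and 445, 861 and 2412 in EF libraries, a log2 change of -3.31 (SE 0.55, adjusted p = 0.00276), or -2.65 without EF 69. The PDGFA libraries lay within a narrow band while the EF libraries spread widely. Col26a1 had 67.9, 102 and 167 in PDGFA and 195, 315 and 307 in EF, a log2 change of -1.33 (SE 0.38, adjusted p = 0.0268), a call lost without PDGFA 62 (adjusted p = 0.0861), PDGFA 68 (0.0849), EF 68 (0.0795) or EF 69 (0.0671).

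At lower levels the transmembrane collagens split: Col23a1 rose by 2.28 on the log2 scale (195 ± 74.1 in PDGFA, 38.7 ± 11.8 in EF, adjusted p = 0.00279), and Col25a1, whose product binds amyloid in the human brain, fell by 2.21 (5.38 ± 0.79 in PDGFA, 34.8 ± 27.8 in EF, adjusted p = 0.0207). The Col25a1 call was lost without PDGFA 62 (adjusted p = 0.0557), PDGFA 68 (0.0639) or PDGFA 69 (0.0703), and the change was -1.62 on the log2 scale without EF 69. Col14a1 rose by 3.42 (20.9 ± 2.05 in PDGFA, 1.45 ± 1.74 in EF, adjusted p = 0.00366), and Col19a1 fell by 3.37 (3.23 ± 1.66 in PDGFA, 48.3 ± 32.8 in EF, adjusted p = 0.00455). Of the beaded-filament collagen VI, Col6a3 rose by 2.59 (35.6 ± 6.41 in PDGFA, 5.17 ± 1.59 in EF, adjusted p = 0.00217). Its partner chains Col6a1 and Col6a2 had log2 fold changes of 1.36 and 1.75 that were not called (adjusted p = 0.220 and 0.0785). That of Col6a1 was 0.76 without PDGFA 69, 0.69 without EF 62 and 2.12 without EF 68, and that of Col6a2 was 1.04 without PDGFA 69. Nor were Col7a1 (-0.62), Col12a1 (-0.18), Col20a1 (-0.49) and Col28a1 (-1.06), and in EF the library of mouse 62 held most of Col20a1 (720.2, against 182 for mouse 68 and 74.1 for mouse 69) and of Col28a1 (187, against 22.5 and 37.1). The omission of EF 62 gave Col20a1 a log2 fold change of 0.38 and Col28a1 one of -0.18. Without EF 69 that of Col20a1 was -1.25, and without EF 68 that of Col28a1 was -1.67.

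Collagen IV, the network collagen of basement membranes, is encoded by 6 genes that lie head to head in pairs. Col4a3 and Col4a4 start 71 bases apart on chromosome 1, Col4a5 and Col4a6 start 1308 bases apart on the X chromosome, and Col4a1 and Col4a2 overlap by 22 bases on chromosome 8. The Col4a3 and Col4a4 pair moved in opposite directions, at few reads. Col4a3 passed the minimum for a test through PDGFA only, with 15 reads in all EF libraries. Col4a4 passed it through EF only, with 24 reads in all PDGFA libraries. Each difference was thus in part a condition of being tested. Col4a3 had 121, 128 and 135 in PDGFA libraries and 7.66, 4.5 and 3.84 in EF libraries, a log2 change of 4.39 (SE 0.37, adjusted p = 0.000124). Col4a4 had 5.94, 6.68 and 8.96 in PDGFA and 19.2, 24.8 and 32.0 in EF, a log2 change of -1.67 (SE 0.40, adjusted p = 0.0140), a call lost without PDGFA 62 (adjusted p = 0.0583) or PDGFA 68 (0.0641). The log2 ratio of Col4a3 to Col4a4 was 4.13, 4.07 and 3.77 in PDGFA and -1.22, -2.23 and -2.77 in EF, and was chosen after its values were seen. Of the exon length of Col4a3, 5.65% is shared with other annotated genes, and the library kit does not mark strand, so reads there cannot be assigned to 1 gene by strand. The same holds for 7 members in all with more than 5% of their exons shared, among them Fbn1 (20.1%), Loxl3 (11.6%) and Nid2 (8.45%).

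The other collagen IV pairs did not pass the test. Col4a5 was the most abundant chain per kilobase of exon (374 in PDGFA, 226 in EF), with 1155, 2192 and 4193 in PDGFA libraries and 1097, 2358 and 1093 in EF libraries (log2 fold change 0.64, adjusted p = 0.336). Col4a6 had 165, 399 and 1179 in PDGFA and 161, 501 and 184 in EF (log2 fold change 0.79, adjusted p = 0.418), or 0.06 without PDGFA 69 and 1.48 without PDGFA 62. In both genes the library of mouse 69 was the highest in PDGFA and that of mouse 68 the highest in EF. The log2 ratio of Col4a5 to Col4a6 was 2.36 ± 0.49 in PDGFA and 2.52 ± 0.27 in EF, and overlapped between the groups. The ratios of both other pairs did not overlap. That of Col4a1 to Col4a2 was 0.36, 0.62 and 0.61 in PDGFA and 0.75, 1.3 and 1.41 in EF, a smaller shift than that of Col4a3 to Col4a4. Col4a1, the chain of all basement membranes together with Col4a2, had 232, 251 and 348 in PDGFA and 592, 793 and 257 in EF (log2 fold change -0.86, adjusted p = 0.137). Col4a2 had 179.9, 163 and 227 in PDGFA and 352, 322 and 95.9 in EF (log2 fold change -0.24, adjusted p = 0.731). In both genes only the EF library of mouse 69 was as low as the PDGFA libraries or lower, and without it Col4a1 and Col4a2 were called lower (adjusted p = 0.00832 and 0.0300).

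**Figure D3:**
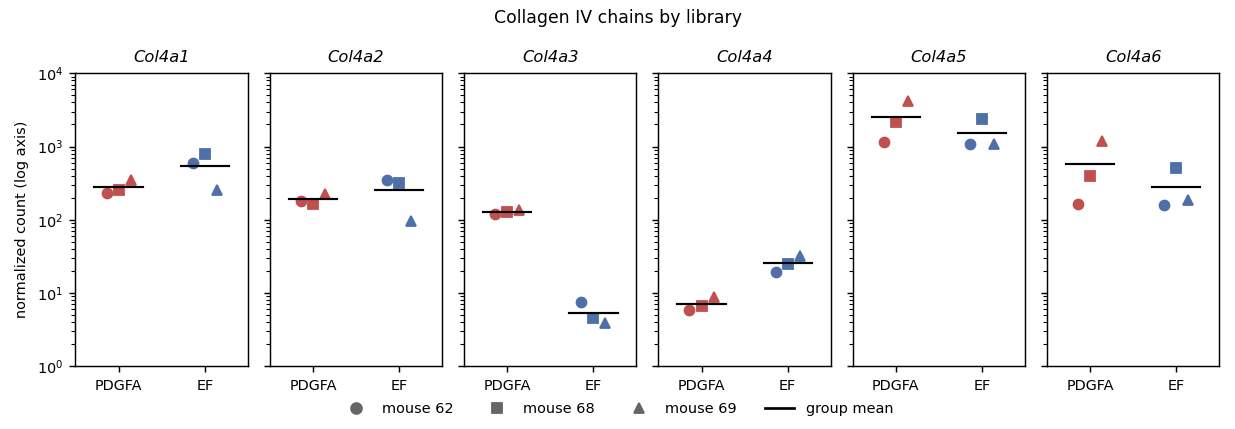
Normalized count (log axis) of the 6 collagen IV chains in each library, PDGFA left of EF, with the mouse shown by the marker and the group mean by the line. Col4a3 is higher and Col4a4 lower in every PDGFA library, and the other 4 chains overlap between the groups.

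Laminin alpha chains, which carry the domains that receptors bind, fell in sum, while Lama2 and Lama3 rose. Lama5, the main alpha chain of these cells, had 1746, 1772 and 2469 in PDGFA libraries and 14433, 16037 and 15232 in EF libraries, a log2 change of -2.95 (SE 0.17, adjusted p = 2.62e-05). Lama4, a chain typical of vessels, had 45.8, 28.6 and 65.4 in PDGFA and 1746, 2213 and 2443 in EF, a log2 change of -5.55 (SE 0.32, adjusted p = 2.64e-05). Lama1, the chain of embryonic basement membranes, had 102, 70.7 and 47.5 in PDGFA and 170.5, 558 and 183 in EF, a log2 change of -1.87 (SE 0.51, adjusted p = 0.0237). No PDGFA library reached an EF library in these 3 genes, but the call of Lama1 was lost without PDGFA 68 (adjusted p = 0.0686) or PDGFA 69 (0.0852).

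Lama2, the alpha chain of muscle and Schwann cell basement membranes, whose loss causes a muscular dystrophy with white matter changes in people, went up. It had 243, 303 and 349 in PDGFA libraries and 22.0, 19.1 and 19.2 in EF libraries, a log2 change of 3.81 (SE 0.28, adjusted p = 7.19e-05). Lama3, the alpha chain of skin laminin, rose at a lower level, with 54.3, 71.6 and 143 in PDGFA and 13.4, 13.5 and 2.56 in EF (log2 fold change 3.20, SE 0.66, adjusted p = 0.00742, or a log2 fold change of 2.53 without EF 69). Both genes had every PDGFA library above every EF library. Per kilobase of exon the 5 alpha chains summed to 214 ± 42 in PDGFA and 1548 ± 111 in EF. Lama5 made 82.1% ± 0.63 of that sum in PDGFA and 86.5% ± 1.75 in EF. Lama2 made 8.60% ± 0.98 in PDGFA and 0.0801% ± 0.0123 in EF, and Lama4 1.78% ± 0.46 in PDGFA and 11.4% ± 1.47 in EF. These shares were chosen after the values were seen.

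Of the beta chains, Lamb1 fell and Lamb2, the beta chain of synapses and of mature vessels and kidney, was not called. Lamb1 had 128, 122 and 111 in PDGFA libraries and 2570, 2915 and 1520 in EF libraries, a log2 change of -4.21 (SE 0.26, adjusted p = 3.45e-05). Lamb2 had 2424, 3368 and 4381 in PDGFA and 2683, 3795 and 3355 in EF (log2 fold change 0.02, adjusted p = 0.950). Lamb1 therefore made 2.28% ± 0.81 of the beta chains per kilobase in PDGFA and 30.1% ± 7.76 in EF. Lamb3, of skin laminin, was scarce and not called (log2 fold change -1.04, adjusted p = 0.0949).

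Lamc1, the gamma chain of most laminins, had 13244, 12438 and 9851 in PDGFA libraries and 8476, 10653 and 10668 in EF libraries (log2 fold change 0.25, adjusted p = 0.288), with groups that overlapped. Per kilobase, Lamc1 averaged 1432 in PDGFA, where the beta chains summed to 571 ± 160 and the alpha chains to 214 ± 42. In EF the order was another, with 1548 ± 111 for the alpha chains, 1201 for Lamc1 and 778 ± 125 for the beta chains.

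**Figure D4:**
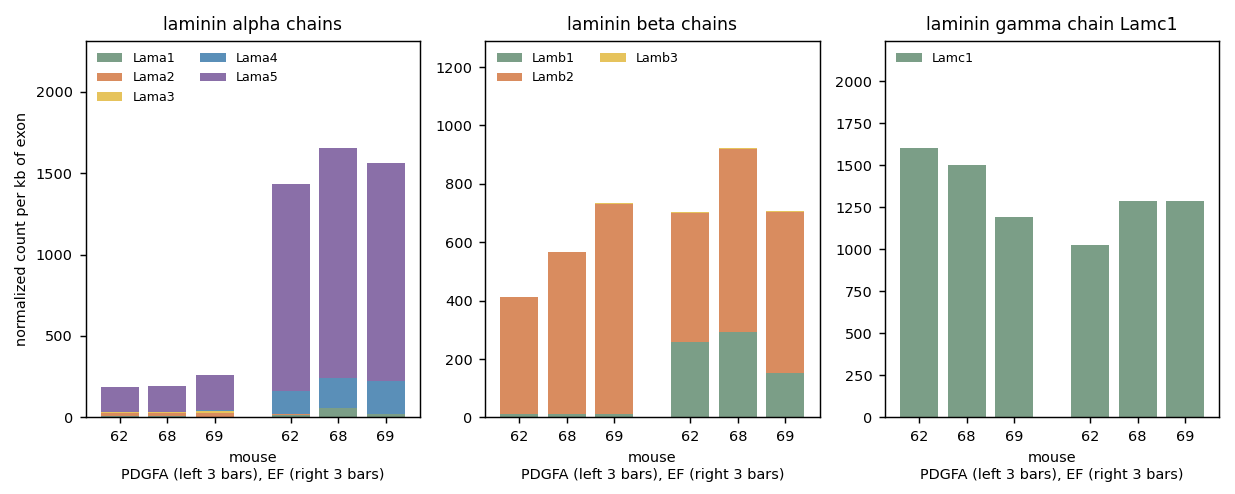
Stacked normalized counts per kilobase of exon of the laminin alpha chains, the beta chains and Lamc1 in each library, with the 3 PDGFA libraries left of the 3 EF libraries and a colour per chain. The alpha bars are lower in every PDGFA library, the Lamb1 part of the beta bars is 1.53% to 3.13% there, and the Lamc1 bars overlap.

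The linkers of the basement membrane moved apart. Perlecan (Hspg2), a large heparan sulfate proteoglycan that binds FGFs, had 1744, 1272 and 1547 in PDGFA libraries and 6801, 10668 and 8247 in EF libraries, a log2 change of -2.48 (SE 0.20, adjusted p = 0.000105). Agrin, also a heparan sulfate proteoglycan and known for clustering acetylcholine receptors at the muscle synapse, was the most abundant of the linkers per kilobase (2634 in PDGFA, 3262 in EF) and was not called, with 25386, 23669 and 24310 in PDGFA and 28456, 37844 and 24566 in EF (log2 fold change -0.29, adjusted p = 0.292). The nidogens, which bridge laminin and collagen IV, rose. Nid1 had 687, 612 and 778 in PDGFA and 105, 463 and 136 in EF, a log2 change of 1.87 (SE 0.51, adjusted p = 0.0235). Nid2 had 603, 1160 and 1456 in PDGFA and 437, 535 and 554 in EF, a log2 change of 0.99 (SE 0.32, adjusted p = 0.0420). Neither nidogen's groups overlapped, yet both calls were lost in several of the fits that left out 1 library. That of Nid1 was lost without PDGFA 62 (adjusted p = 0.0653), PDGFA 68 (0.0589), PDGFA 69 (0.0806) or EF 69 (0.0670) and with edgeR (0.0512), and the log2 change was 2.52 without EF 68. That of Nid2 was lost without PDGFA 68 (adjusted p = 0.137), PDGFA 69 (0.138), EF 62 (0.0897), EF 68 (0.0815) or EF 69 (0.0670).

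Fibulin 2 and both fibrillins, proteins of elastic microfibrils, fell. Fbln2, fibulin 2, which joins fibrillin, perlecan and laminin, had 336, 397 and 287 in PDGFA libraries and 42724, 25165 and 24758 in EF libraries, a log2 change of -6.46 (SE 0.24, adjusted p = 9.22e-06). Fbn1, fibrillin 1, which makes the microfibrils and is mutated in Marfan syndrome in people, had 724, 579 and 669 in PDGFA and 5259, 4917 and 6705 in EF, a log2 change of -3.09 (SE 0.17, adjusted p = 2.38e-05). Fbn2, the fibrillin of developing tissue, had 4463, 3525 and 4028 in PDGFA and 20774, 15268 and 24143 in EF, a log2 change of -2.31 (SE 0.20, adjusted p = 0.000136). No PDGFA library of these 3 genes reached an EF library.

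Fbln1, fibulin 1, had 179.9, 189 and 299 in PDGFA and 950, 2184 and 3912 in EF, a log2 change of -3.21 (SE 0.48, adjusted p = 0.00186). Fbln5 and Fbln7 were not called (log2 fold changes 0.99 and -0.65, adjusted p = 0.486 and 0.351). For Fbln5, which guides elastin onto microfibrils, the EF library of mouse 62 held 679.9, against 51.8 for mouse 68 and 51.1 for mouse 69, and without that library Fbln5 was called higher (log2 fold change 2.23, adjusted p = 0.0343). Its log2 fold change was 1.69 without PDGFA 69, 0.38 without EF 68 and 0.37 without EF 69. Fbn2 exceeded Fbn1 in both groups, by a log2 ratio per kilobase of 2.48 ± 0.02 in PDGFA and 1.70 ± 0.17 in EF, again a ratio chosen after its values were seen.

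Biglycan, a small proteoglycan that binds collagen and is found in cartilage and bone, had the second highest log2 fold change of the tested members, after Col9a1. Bgn had 2567, 2396 and 1363 in PDGFA libraries and 32.6, 42.8 and 12.8 in EF libraries, a log2 change of 6.22 (SE 0.46, adjusted p = 7.25e-05). Sparc, a collagen-binding protein secreted by glia, had 13816, 21650 and 18905 in PDGFA and 5040, 10289 and 6088 in EF, a log2 change of 1.39 (SE 0.29, adjusted p = 0.00812). Sparcl1, or hevin, an astrocyte protein that promotes synapse formation, had 27922, 23284 and 33661 in PDGFA and 12450, 11789 and 7943 in EF, a log2 change of 1.41 (SE 0.23, adjusted p = 0.00257). The groups were apart in all 3 genes. Per kilobase Sparcl1 was the most abundant member in PDGFA (9632, with Sparc next at 4784), and in EF that place was held by Fbln2 (4848, with Sparcl1 next at 3652). Fibronectin, Fn1, had 1074, 911 and 1189 in PDGFA and 1283, 4001 and 1202 in EF (log2 fold change -0.80, adjusted p = 0.182). Its groups did not overlap, and the EF library of mouse 68 alone stood far above the rest.

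Lysyl oxidases, the enzymes that cross-link collagen and elastin, did not move as a family. Loxl3, linked to cartilage and palate development in mice, had 471, 606 and 762 in PDGFA libraries and 179, 259 and 258 in EF libraries, a log2 change of 1.39 (SE 0.25, adjusted p = 0.00435). Loxl2, which acts on collagen IV, had 5.94, 2.86 and 15.2 in PDGFA and 65.1, 374 and 142 in EF, a log2 change of -4.33 (SE 0.75, adjusted p = 0.00350). It was -4.93 without EF 62 and -3.68 without EF 68. Loxl1 was not called (log2 fold change -1.03, adjusted p = 0.173), and Lox itself was under the minimum for a test. Col4a3bp had 1829, 2112 and 2039 in PDGFA and 1600.2, 1291 and 1454 in EF, a log2 change of 0.46 (SE 0.14, adjusted p = 0.0342). With the mouse as a block it was not called (adjusted p = 0.0918), nor without PDGFA 62 (0.0701), PDGFA 68 (0.154), PDGFA 69 (0.109) or EF 68 (0.0875). The 9 members under the minimum had means of 1.8 to 9.74 over the 6 libraries, and among them were Col1a2, Col6a4, Col8a2, Col17a1, Col22a1, Col24a1, Lamc3 and Lox.

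The libraries of the EF group differed more among themselves in these genes than the PDGFA libraries did. The median SD on the log2 scale was 0.32 in PDGFA and 0.72 in EF over the tested members, and 0.17 in PDGFA and 0.38 in EF over all tested genes. It was larger in EF for 42 of the 58. In PDGFA the library of mouse 69 was the highest for 31 members. Of the 38 calls 29 held in every fit that left out 1 library (16 higher and 13 lower), and all of the other 9 were lost without PDGFA 68. The share of all genes that lost a call in that fit is not given here, so the loss is not read as a trait of these members. Without both libraries of mouse 68, 18 members were called higher and 12 lower, against 11.4% and 7.82% of all tested genes in that fit. Calls that this ended were those of Nid2, Col1a1, Col4a4, Col19a1 (adjusted p = 0.0634), Col25a1, Col26a1, Lama1 and Col4a3bp. edgeR called 18 members higher and 18 lower, against 20.8% and 18.6% of all genes, DESeq2 called 21 and 19, against 23.2% and 21.5%, and limma with the mouse as a block called 19 and 19, against 18.8% and 15.4%. DESeq2 also called Col4a1 lower (adjusted p = 0.0445) and Col6a2 higher (adjusted p = 0.0366).

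Most enzymes and chaperones that build collagen fell. Of 31 listed genes 28 were tested, of which 17 were lower and 1 was higher in PDGFA and 10 were not called, against 18.0% lower and 21.8% higher over all tested genes. The median log2 fold change was -0.87. Serpinh1, the collagen chaperone HSP47, averaged 4060.4 ± 915 in PDGFA and 18799 ± 3530 in EF, a log2 change of -2.22 (adjusted p = 0.000225). Plod2, a lysyl hydroxylase that prepares collagen ends for cross-linking, averaged 868 ± 31.1 in PDGFA and 2291 ± 394 in EF, a log2 change of -1.39 (adjusted p = 0.000522). Adamts14, a protease that trims procollagen, averaged 10.1 ± 4.54 in PDGFA and 1455 ± 798 in EF, a log2 change of -7.00 (adjusted p = 4.83e-05). The 1 gene called higher was P4ha3, a catalytic subunit of prolyl 4-hydroxylase, at 558 ± 76.4 in PDGFA and 3.41 ± 1.51 in EF, a log2 change of 7.03 (adjusted p = 2.18e-05). With 9 reads in all EF libraries, P4ha3 passed the minimum for a test through PDGFA only. Its sister subunits P4ha1 and P4ha2 were among the 17: P4ha1 fell by 1.12 and P4ha2 fell by 2.15 on the log2 scale (adjusted p = 0.00960 and 0.00875). Leaving out both libraries of mouse 68 left 7 called lower and 1 higher, against 7.82% and 11.4% of all genes in that fit, and 2 were called higher without EF 62.

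**Figure D5:**
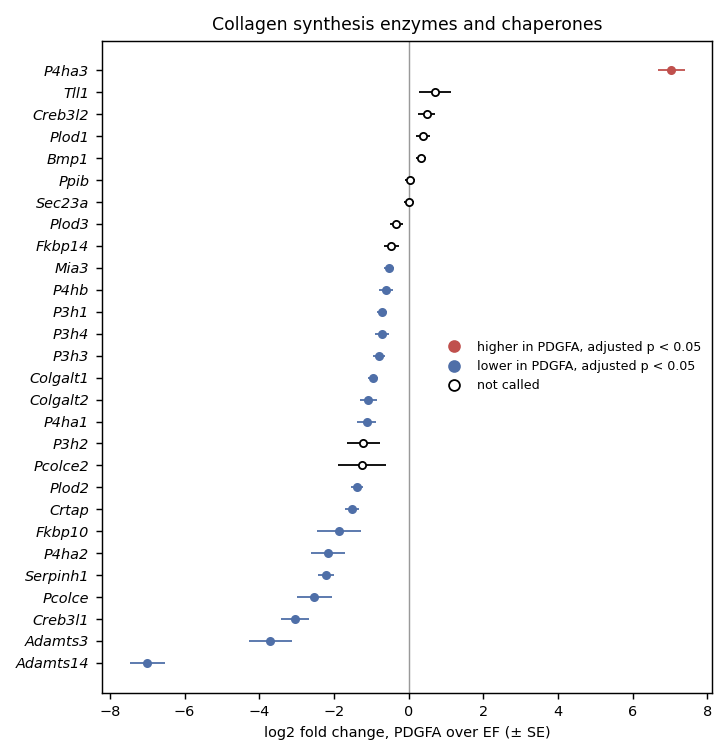
Log2 fold change, PDGFA over EF, of the 28 tested genes of collagen synthesis, with bars for the standard error; filled points passed an adjusted p of 0.05. P4ha3, at 7.03, is the 1 gene called higher, and the 17 genes called lower run down to -7.00 for Adamts14.

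Receptors for laminin and collagen were listed together with syndecans, Lrp4 and Musk, and the list went both ways. Of 18 tested genes 6 were higher and 5 lower, against 21.8% and 18.0% of all tested genes, with a median log2 fold change of -0.22. Integrin subunits called higher were Itga2, Itga3 and Itgb4 (log2 fold changes 1.68, 1.56 and 1.72, adjusted p = 0.0232, 0.0492 and 0.0151). Each of these 3 calls was lost without PDGFA 68 or without PDGFA 69. Itga6 and Itgb1, the subunits of the laminin receptor integrin alpha6 beta1 of neural stem cells, fell: Itga6 averaged 4406 ± 613 in PDGFA and 15051 ± 3890 in EF (log2 fold change -1.75, adjusted p = 0.000578), and Itgb1 12558 ± 261 in PDGFA and 25275 ± 5500 in EF (log2 fold change -0.98, adjusted p = 0.00638). Sdc3, a heparan sulfate proteoglycan of neural membranes, fell by 1.92 on the log2 scale (adjusted p = 0.00104). Lrp4, the agrin receptor, averaged 7881 ± 42.3 in PDGFA and 2577 ± 261 in EF (log2 fold change 1.62, adjusted p = 9.5e-05). Its partner kinase Musk had 26.3, 41.1 and 11.6 in PDGFA and 0 in all EF libraries, which is at least 23.8-fold higher against a floor of 3 counts over the EF group. Musk, and Itgb4 with a mean of 8.69 in EF, passed the minimum for a test through PDGFA only. The median of the list was the same with Musk at that bound, as it had to be, since Musk stayed the highest gene of the list. Sdc4, a focal adhesion proteoglycan, rose by 1.23 on the log2 scale (adjusted p = 0.000485). The count of receptors called higher was 3 without PDGFA 68 or without PDGFA 69. That of receptors called lower was 3 without PDGFA 68 and 2 without both libraries of mouse 68, where 7.82% of all genes were called lower.

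TGF-beta signalling and its early targets, a pathway known to induce matrix genes in fibroblasts, had 5 of 19 tested genes higher and 3 lower, shares near the 21.8% and 18.0% of all tested genes, with a median log2 fold change of 0.33. Smad7, the feedback inhibitor of the pathway, averaged 1511 ± 219 in PDGFA and 184 ± 58.7 in EF (log2 fold change 3.06, adjusted p = 0.000104). Tgfb2, a ligand, rose by 1.52 (adjusted p = 0.00328) and Smad3, a signal transducer, by 0.88 (adjusted p = 0.00291). The latent TGF-beta binding proteins Ltbp4 and Ltbp1, which attach the ligand to fibrillin microfibrils, fell by 1.68 and 2.76 on the log2 scale (adjusted p = 0.000525 and 0.00133). The receptor Tgfbr2 fell by 2.27 (adjusted p = 0.0168). Without EF 68 it fell by 2.91, without EF 69 it fell by 1.64, and the omission of PDGFA 62 ended the call (adjusted p = 0.0553). Without both libraries of mouse 68, 2 genes of the list were called higher, against 11.4% of all genes.

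Markers of the cells that make most matrix in the brain were looked at beside these changes. Of 12 listed genes of fibroblasts and meningeal cells 5 were in the table, with sums of 1587 to 2475 in PDGFA libraries and 1269.9 to 3456 in EF libraries, most of it Prrx1, and none of the 3 tested was called. Dcn and Lum, the defining proteoglycans of fibroblasts, are not among those 5. Of 10 mural cell markers 8 were in the table, with sums of 5939 to 7145 in PDGFA and 2588 to 10323 in EF, most of it Notch3. In that list 2 of 5 tested genes were called higher and 1 lower: Pdgfrb averaged 815 ± 95.8 in PDGFA and 21.9 ± 20.3 in EF, and Rgs5 60.3 ± 24.7 in PDGFA and 1.88 ± 3.25 in EF (adjusted p = 0.000396 and 0.00275). The 1 called lower was Tagln, at 7.85 ± 2.31 in PDGFA and 21.7 ± 6.77 in EF (log2 fold change -1.34, adjusted p = 0.0436). Rgs5 passed the minimum for a test through PDGFA only and Tagln through EF only. Acta2 (log2 fold change -1.02) and Notch3 (0.37) were not called. Of 10 endothelial markers 7 were in the table, with sums of 462 to 741 in PDGFA and 144 to 492 in EF, most of it Kdr in PDGFA, while Cdh5 and Cldn5 are not among the 7; of 5 tested, 1 was called higher and 1 lower. Of 10 microglia and macrophage markers 2 were in the table, with sums of 5.73 to 8.96 in PDGFA and 11.5 to 44.7 in EF. Beside the mural and endothelial counts stand 21.8% called higher and 18.0% called lower over all tested genes. The part of these cells, and of those that carry the oligodendrocyte, astrocyte, progenitor, neuron and ependymal markers, in the matrix changes was not tested.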

How the data were processed

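RNA of 6 libraries was extracted on RNeasy columns and 1.3 ug of each entered a NEBNext Ultra II preparation, which does not mark strand, per the labels' protocols. The authors deposited a single table of normalized signal: each gene's reads over its library's size factor. FastQC, STAR, DESeq2 and the build mm10 (GRCm38) are listed without versions per the submitters' processing notes. The annotation release and strand setting are not given in the sources. Dividing each value by the smallest above 0 of its library gave whole reads for 100% of values within 0.001, with size factors of 0.782 to 1.18.

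Genes averaging 10 or more were tested on log2(normalized count + 1) in R 4.3.3 by limma 3.58.1 (lmFit; eBayes with trend), PDGFA minus EF, two-sided, with Benjamini-Hochberg adjustment over 17068 genes at 0.05. Every adjusted p is from limma unless another tool is named. Fold changes on this scale understate those of genes with few reads. Alternatives were pseudocounts of 0.5 and 5, no minimum or one of 50, TMM scaling, DESeq2 1.42.0 and the quasi-likelihood test of edgeR 4.0.16 on the recovered reads, the mouse as a block, and fits without each library or without both libraries of mouse 68. The fit was checked on simulated data with the same spread in both groups. That check therefore does not cover the larger spread of the EF libraries.

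The mouse numbers pair the libraries, since each animal is in both groups. Between the 2 libraries of an animal, deviations from group means correlated at -0.0906 (mouse 62), 0.11 (mouse 68) and -0.11 (mouse 69). Chi-square per degree of freedom between libraries of a group was 20 to 140, so none was a repeat deposit. As nothing says how cultures were set up, p-values measure the spread between these libraries only.

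The members and all lists were chosen with earlier results of these data known. Values in every library are given for called members averaging 200 or more in their higher group and for the 10 most abundant tested members. From each list of pathway genes up to 3 called members per direction were named by smallest p. P4ha1, P4ha2, Itga2, Itga3, Itgb4, Pdgfrb, Rgs5, Tagln, Acta2 and all other library values were named after they were seen. Exon lengths and overlaps are from GENCODE M21, where all 67 symbols matched. Some results are not reported here.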

Additional observations from a re-analysis of the deposited data

How the results depend on the processing

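Over pseudocounts of 0.5 and 5, no minimum or one of 50, TMM scaling, edgeR, DESeq2 and the mouse as a block, between 17 and 23 members were called higher and between 14 and 19 lower. The 17 higher and 14 lower were of 48 members tested at a minimum of 50, and the 23 higher were of 67 tested with no minimum. Leaving out 1 library gave 16 to 20 higher and 13 to 19 lower of 58 tested. No share of all genes is given beside the counts of the fits without 1 library. With the replicate block 19 were higher and 19 lower; it added Col5a2, ended the call of Col4a3bp and changed no other member's call. edgeR called 18 higher and 18 lower, and DESeq2 21 and 19. TMM moved the median of all genes by 0.002.

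Genes of collagen synthesis called higher were 1 to 2 in fits that left out 1 library; those called lower were 7 without both libraries of mouse 68. Receptors called higher were 3 at a minimum mean of 50 and 3 to 6 without 1 library, and those called lower 3 to 5 without 1 library and 2 without both of mouse 68. Genes of TGF-beta signalling called higher were 2 without both of mouse 68. These fits have fewer libraries or genes.

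The log2 change took the other sign, with no call on that side, for Col12a1 (-0.40 to 0.15 without 1 library, 0.05 without EF 68, 0.38 without both of mouse 68), Col20a1 (-1.25 to 0.38 without 1 library), Col4a2 (-0.84 to 0.10 without 1 library, 0.03 without EF 68, 0.13 without both of mouse 68) and Lamb2 (-0.18 to 0.24 without 1 library, -0.11 without EF 62); the cause was not tested. Without EF 69, Col4a2 was called. With 3 libraries a group, differences near the spread of the EF libraries were not resolved, and few reads limit genes near the minimum.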
